A study of Homo sapiens with 8 samples.

Results

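The mRNAs of chromatin regulators are the subject here: 77 genes whose names mark them as histone demethylases (KDM), SET domain proteins (SETD), CHD remodellers, SMARC proteins, ARID proteins, bromodomain proteins (BRD), or histone deacetylases (HDAC), together with EP300, CREBBP, EP400, NSD1, ASH1L, and TRRAP. The rule picks them by gene name alone from the 57756 genes listed in the deposited tables and uses no measured value. It was set with earlier results of these data known. Each name belonged to 1 gene, and all 77 passed the minimum of 10 counts on average over the libraries. In 4 cancer cell lines, with no treatment named in the labels, an antibody against RPS6, which is part of the small subunit of the ribosome, was used for RNA immunoprecipitation (RIP), and the recovered RNA was sequenced beside the input, an aliquot of the same lysate. The lines are Hep3B (liver cancer), HCT116 (colorectal cancer), DU145 (prostate cancer), and SW1990 (pancreatic cancer). With 1 RIP and 1 input library for each cell line, the 8 libraries formed 4 pairs, and no cell line had a replicate of its own. The cell lines serve as the replicates. In the main test the cell line pairs RIP with input, so p-values rest on how their ratio varies between cell lines. A pull-down with a control antibody was not analysed here. The sample titles and the paper place the liver pair in Hep3B cells, while the cell line field of the labels reads Huh7, and the pair is called Hep3B here.

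Chromatin regulators act on the packaging of DNA. Acetyltransferases and methyltransferases place marks on histone tails, deacetylases and demethylases remove them, bromodomain proteins bind acetylated histones, and ATP-driven remodellers slide or evict nucleosomes. Many of the genes are long, and several are often mutated in cancer, among them ARID1A and SMARCA4 of the SWI/SNF complexes. mRNAs carried by ribosomes come down with RPS6, RNA that sticks without a specific contact can come down too, and RIP over input compares the share of an mRNA in the pull-down with its share in the lysate. The values are shares of a library, and the amount of RNA that each pull-down yielded is not given in the sources used here. The log2 fold changes by edgeR also carry a scaling factor per library (TMM), so they are not changes of share alone. These factors were 1.04 to 1.18 for the inputs and 0.79 to 0.94 for RIP.

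Of the 77 members, 50 were higher in RIP than in input (64.9%), 7 were lower (9.09%), and 20 did not pass the test (edgeR's quasi-likelihood test with the cell line as a block, adjusted p below 0.05 over all genes tested). Among all 19921 genes tested, 26.5% were higher and 24.9% were lower. Among the 14592 protein-coding genes tested, 32.0% were higher and 26.2% were lower. The median log2 fold change was 1.001 over the members, 0.12 over protein-coding genes, and -0.05 over all genes. With library totals in place of TMM, which compares shares, the median was 0.65 over the members and -0.40 over all genes. By that scaling 41 members were higher and 14 were lower, against 19.52% and 32.05% of all genes. In FPKM (fragments per kilobase of transcript, scaled to the depth of the library), all 4 RIP libraries lay above all 4 inputs for 28 members, against 10.9% of all genes tested, and below them for 2 members, against 8.17%. Without the block for the cell line, 21 members were higher, against 7.16% of all genes, and 2 were lower, against 6.75%. The members took 0.558% to 0.634% of all fragments in the inputs and 0.907% to 1.31% in the RIP libraries, and these ranges do not overlap. The tables were deposited separately for Hep3B with HCT116 and for DU145 with SW1990. Over the pairs of Hep3B and HCT116 alone, 37 members were higher and 5 were lower, against 17.1% of all genes in either direction. Over the pairs of DU145 and SW1990 alone, 40 were higher and 3 were lower, against 21.1% and 21.6%. All members of a library share its pull-down and its depth, so the members are not independent of each other.

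**Figure D1:**
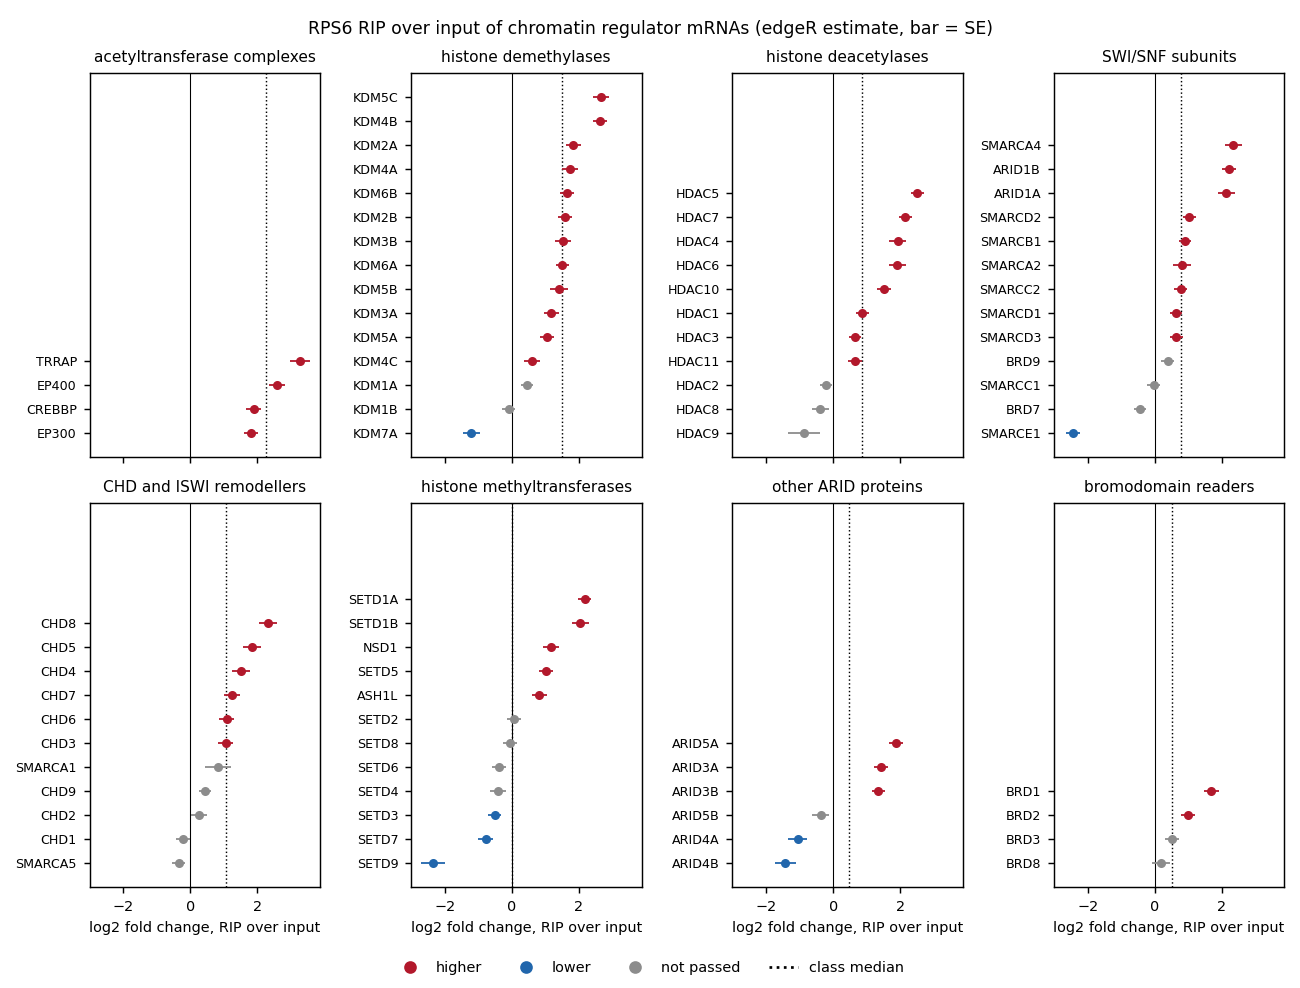
Log2 fold change of RIP over input for 76 of the 77 members in 8 classes, as points with bars for the SE of the edgeR estimate over 4 cell line pairs. Red points passed the test as higher, blue points as lower, and grey points did not pass, and the dotted line is the median of the class. All 4 genes of the acetyltransferase complexes and 12 of the 15 demethylases are red, while the methyltransferases spread from -2.35 to 2.17.

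The mRNAs of the acetyltransferase complexes stood highest, with a median log2 fold change of 2.24. All 4 were higher in RIP, against 26.5% of all genes. TRRAP, the large scaffold that brings transcription factors to histone acetyltransferase complexes, had the largest log2 fold change of all members. In the order Hep3B, HCT116, DU145, and SW1990, which is kept throughout, TRRAP was at 6.18, 8.52, 14.4, and 13.1 FPKM in the inputs and at 46.0, 129.9, 104, and 171 FPKM in the RIP libraries (log2 fold change 3.27, SE 0.29, adjusted p = 1.59e-05). The lowest RIP value was several times the highest input, and the Hep3B libraries were the lowest of both kinds. The deposited table lists TRRAP within chr7:98475555-98741723 of human genome version 19 (hg19), an interval that 6 listed genes share. EP400, the ATPase of the TIP60 complex, which exchanges histone variants and works with TRRAP, rose from 3.00, 4.88, 6.89, and 6.56 FPKM to 12.8, 42.5, 35.1, and 48.5 FPKM (log2 fold change 2.60, SE 0.24, adjusted p = 1.90e-05). CREBBP and EP300, the paralogous acetyltransferases that act at enhancers as coactivators, had smaller values. CREBBP was at 10.6, 12.9, 24.7, and 11.2 FPKM in the inputs and 46.1, 51.4, 89.6, and 91.5 FPKM in RIP (log2 fold change 1.89, SE 0.23, adjusted p = 6.93e-05). EP300 was at 8.28, 5.90, 10.4, and 9.20 FPKM in the inputs and 25.2, 27.9, 41.5, and 27.5 FPKM in RIP (log2 fold change 1.81, SE 0.21, adjusted p = 6.25e-05). For each of these genes the 2 groups of libraries did not overlap, and the call held without any 1 cell line and without the block.

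**Figure D2:**
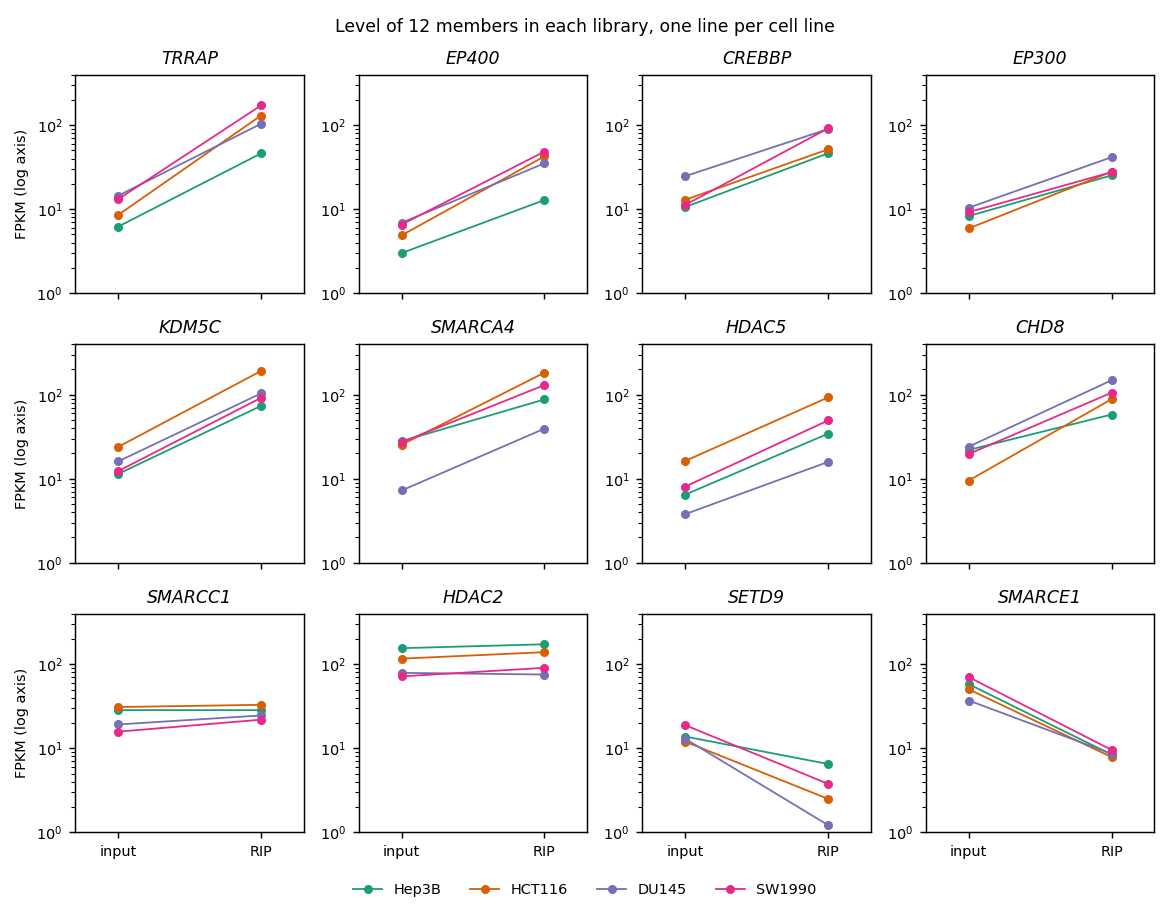
FPKM on a log axis of 12 members in the input and the RIP library of each cell line, with a line joining the libraries of a pair. In the first 8 panels every line rises, SMARCC1 and HDAC2 stay nearly level, and SETD9 and SMARCE1 fall in all 4 cell lines.

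Histone demethylases, which remove methyl groups from histone lysines, were higher in 12 of 15 cases (80%, against 26.5% of all genes). Their median was 1.51, and without the block 6 of them were higher, against 7.16% of all genes. KDM5C, an X-linked demethylase of methylated lysine on histone H3, had 11.4, 23.9, 16.1, and 12.3 FPKM in the inputs and 73.5, 191, 104, and 91.7 FPKM in RIP (log2 fold change 2.67, SE 0.24, adjusted p = 1.59e-05). KDM4B, a demethylase of heterochromatin marks, had 6.72, 12.1, 5.18, and 4.88 FPKM in the inputs and 33.4, 80.3, 24.6, and 41.4 FPKM in RIP (log2 fold change 2.63, SE 0.21, adjusted p = 1.29e-05). Both were highest in HCT116 among the inputs and again among the RIP libraries. The other demethylases that passed ranged from 0.60 for KDM4C to 1.84 for KDM2A. KDM1A, the flavin-dependent demethylase of the CoREST complex, had 0.46 (adjusted p = 0.0643), and its paralog KDM1B had -0.10 (adjusted p = 0.691). KDM7A was the only member of this class called lower in RIP by the test on counts, at -1.21 (SE 0.26, adjusted p = 0.00313).

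Histone deacetylases take acetyl groups off histones and other proteins. By edgeR 8 of 11 were higher (72.7%, against 26.5% of all genes) and 0 were lower (against 24.9%), with a median of 0.86. At an unadjusted p below 0.05, and by DESeq2 or limma, the number lower was 0 as well. Scaling by library totals gave 2 lower, against 32.05% of all genes, and no minimum on counts gave 1, against 14.8%. The number higher was 4 without the block, against 7.16% of all genes, and 5 within each deposited table, against 17.1% and 21.1%. The class IIa enzymes HDAC4, HDAC5, and HDAC7, which shuttle between nucleus and cytoplasm, had 1.92, 2.51, and 2.15. HDAC9 of the same class had -0.88 and did not pass (SE 0.47, adjusted p = 0.148). HDAC5 was at 6.48, 16.3, 3.79, and 8.06 FPKM in the inputs and 34.3, 92.8, 15.9, and 49.3 FPKM in RIP (log2 fold change 2.51, SE 0.18, adjusted p = 1.23e-05). The DU145 RIP library, the lowest of its kind, lay just under the HCT116 input, the highest of its kind, so the groups overlapped although every pair rose. HDAC7 rose from 11.95, 11.3, 24.7, and 16.8 FPKM to 48.0, 34.3, 87.2, and 86.5 FPKM (log2 fold change 2.15, SE 0.19, adjusted p = 1.55e-05), with no overlap. HDAC6, a mainly cytoplasmic deacetylase of tubulin, had 1.91, and HDAC10 had 1.51. The class I enzymes were nearer to 0, with 0.86 for HDAC1 and 0.65 for HDAC3, which passed, and -0.21 for HDAC2 and -0.38 for HDAC8, which did not.

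HDAC1 and HDAC2 are close paralogs that sit together in the NuRD, Sin3, and CoREST complexes. HDAC1 was at 63.7, 161, 42.2, and 112 FPKM in the inputs and 134, 341, 88.6, and 245 FPKM in RIP (log2 fold change 0.86, SE 0.19, adjusted p = 0.00337), so that each RIP library had more than its own input while the groups overlapped. HDAC2 was at 156, 117, 79.2, and 71.9 FPKM in the inputs and 173, 139.6, 75.6, and 90.9 FPKM in RIP (log2 fold change -0.21, SE 0.18, adjusted p = 0.353). In FPKM HDAC2 was higher in 3 of 4 pairs, and its sign turned with limma on FPKM. By counts its log2 ratios were below 0 in all 4 pairs, at -0.16, -0.11, -0.51, and -0.07. With library totals edgeR called HDAC2 lower (log2 fold change -0.56, adjusted p = 0.0309). The ratio of HDAC1 to HDAC2 FPKM was 0.41, 1.38, 0.53, and 1.56 in the inputs and 0.77, 2.45, 1.17, and 2.70 in RIP, higher in RIP in all 4 cell lines. An exact sign-flip permutation test over 4 pairs cannot go below p = 0.125, and no test of this difference was made. Because HDAC1 passed the test of RIP over input and HDAC2 did not, the 150 bases just before the first listed RefSeq start of each are shown. The bases are on the strand of the gene in GRCh38.p14, with GC boxes (GGGCGG or, for the other strand, CCGCCC) in capitals. They lie at chr1:32291933-32292082 on the plus strand for HDAC1 and at chr6:113971149-113971298 on the minus strand for HDAC2.
HDAC1: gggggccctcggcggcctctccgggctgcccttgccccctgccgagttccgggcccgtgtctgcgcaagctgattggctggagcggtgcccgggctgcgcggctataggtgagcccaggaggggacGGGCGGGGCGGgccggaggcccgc
HDAC2: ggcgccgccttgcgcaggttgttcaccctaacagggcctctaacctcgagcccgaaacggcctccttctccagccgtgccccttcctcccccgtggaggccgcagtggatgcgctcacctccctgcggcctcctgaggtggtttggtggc
In the 250 bases before that start, HDAC1 held 3 matches to the GC box, of which 2 overlap in the window shown, and HDAC2 held 0. Only the first listed start of each gene was read for this count. Of 111 RefSeq promoters that belong to 66 members, 62.2% held a match within 250 bases, against 61.1% of 17233 promoters of the protein-coding genes tested and 42.6% of all 35116 promoters. The share among the members was near that of other protein-coding genes. A match is a description of the letters and not evidence of binding, and RIP measures the RNA and not the promoter.

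Of 12 methyltransferases and other SET domain proteins, 5 were higher (41.7%, against 26.5% of all genes) and 3 were lower (25%, against 24.9%, so at the background), with a median of 0.00. Without the block 1 was higher and 1 was lower, library totals gave 5 lower, and limma on FPKM, the fit without DU145, and the fit within each table gave 1 lower. Within the table of Hep3B and HCT116, 2 were higher, against 17.1% of all genes. Of all genes, 7.16% were higher and 6.75% were lower without the block, and 32.05% were lower with library totals. In the fits that gave 1 lower by limma, without DU145, and within each table, the share of all genes lower ran from 17.1% to 21.6%. SETD1A and SETD1B, the catalytic subunits of SET1 complexes that methylate histone H3 at promoters, rose most. SETD1A was at 5.73, 8.58, 9.33, and 6.43 FPKM in the inputs and 23.4, 29.2, 47.5, and 33.8 FPKM in RIP (log2 fold change 2.17, SE 0.19, adjusted p = 1.47e-05), without overlap. SETD1B was at 3.02, 4.42, 11.1, and 7.38 FPKM in the inputs and 8.16, 9.84, 37.4, and 55.9 FPKM in RIP (log2 fold change 2.05, SE 0.25, adjusted p = 8.87e-05). NSD1, mutated in Sotos syndrome, was at 4.97, 14.6, 18.8, and 25.1 FPKM in the inputs and 15.0, 42.4, 63.8, and 57.5 FPKM in RIP (log2 fold change 1.17, SE 0.24, adjusted p = 0.002). Hep3B was the lowest cell line for NSD1 in both kinds of library, and its RIP library lay under the DU145 and SW1990 inputs, so the groups overlapped. ASH1L, a very large methyltransferase linked to active genes, rose from 14.66, 5.89, 13.4, and 7.81 FPKM to 27.6, 17.9, 38.9, and 14.0 FPKM (log2 fold change 0.82, SE 0.22, adjusted p = 0.011). Without DU145 ASH1L no longer passed (log2 fold change 0.64, adjusted p = 0.0756). By edgeR it also did not pass with library totals (0.47, adjusted p = 0.0916) or without the block (0.88, adjusted p = 0.265). The same held within the table of Hep3B and HCT116 (0.59, adjusted p = 0.274). SETD5 had 1.01 and passed, and SETD2, the enzyme for a mark of transcribed gene bodies, had 0.07 and did not (adjusted p = 0.802).

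In the same class, SETD9 fell. It was at 13.8, 12.02, 13.0, and 18.9 FPKM in the inputs and 6.52, 2.51, 1.22, and 3.79 FPKM in RIP (log2 fold change -2.35, SE 0.36, adjusted p = 3.15e-04), and every RIP library was below every input. The RIP values of SETD9 rest on 89, 43, 32, and 64 fragments, the fewest of the members that fell. SETD7, a lysine methyltransferase with histone and other substrates, had 12.6, 42.4, 25.2, and 28.4 FPKM in the inputs and 9.73, 24.8, 13.6, and 28.4 FPKM in RIP (log2 fold change -0.78, SE 0.21, adjusted p = 0.0113). Its groups overlapped, and without DU145 it did not pass (log2 fold change -0.66, adjusted p = 0.0766). SETD3, known as the methyltransferase of an actin histidine, had -0.51 (adjusted p = 0.0465) and passed without HCT116 but not without Hep3B (adjusted p = 0.0759), DU145 (adjusted p = 0.214), or SW1990 (adjusted p = 0.0604).

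SWI/SNF complexes use ATP to move nucleosomes and combine an ATPase with core and accessory subunits. Of 13 subunits among the members, 9 were higher (69.2%, against 26.5% of all genes) and 1 was lower (7.69%, against 24.9%), with a median of 0.77. The number higher was 3 without the block, 5 with library totals, 4 within the table of Hep3B and HCT116, and 5 within that of DU145 and SW1990. In those fits 7.16%, 19.52%, 17.1%, and 21.1% of all genes were higher. The number lower was 2 with DESeq2, upper-quartile factors, library totals, and a minimum of 50 counts. In these fits 27.11% to 32.05% of all genes were lower. SMARCA4 (BRG1), one of the alternative ATPases, was at 28.0, 25.4, 7.25, and 27.2 FPKM in the inputs and 87.9, 183, 39.5, and 130.4 FPKM in RIP (log2 fold change 2.35, SE 0.25, adjusted p = 3.56e-05). DU145 had the lowest level of both kinds, and its RIP library still lay above every input. SMARCA2 (BRM), the other ATPase, was at 7.20, 3.15, 3.96, and 7.80 FPKM in the inputs and 7.99, 15.9, 6.92, and 14.9 FPKM in RIP (log2 fold change 0.81, SE 0.27, adjusted p = 0.0301). SMARCA2 no longer passed without HCT116 (log2 fold change 0.50, adjusted p = 0.127) or without SW1990 (log2 fold change 0.75, adjusted p = 0.101). The ratio of SMARCA4 to SMARCA2 FPKM was 3.89, 8.08, 1.83, and 3.49 in the inputs and 11.01, 11.5, 5.71, and 8.74 in RIP.

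ARID1A and ARID1B, the large alternative DNA-binding subunits, both rose, each without overlap between the groups. ARID1A was at 11.5, 12.6, 20.4, and 14.4 FPKM in the inputs and 32.2, 75.4, 65.1, and 90.8 FPKM in RIP (log2 fold change 2.13, SE 0.25, adjusted p = 6.54e-05). ARID1B was at 7.50, 6.64, 12.3, and 5.06 FPKM in the inputs and 31.9, 36.4, 44.4, and 38.2 FPKM in RIP (log2 fold change 2.22, SE 0.21, adjusted p = 2.00e-05). The ratio of ARID1A to ARID1B ran from 1.53 to 2.85 in the inputs and from 1.01 to 2.38 in RIP, lower in RIP in 3 of 4 cell lines. SMARCC2 (BAF170), a scaffold of the core, had 14.66, 18.5, 32.0, and 28.0 FPKM in the inputs and 33.6, 46.7, 67.3, and 38.6 FPKM in RIP (log2 fold change 0.77, SE 0.19, adjusted p = 0.00664). Its paralog SMARCC1 (BAF155) had 28.5, 31.0, 19.3, and 15.8 FPKM in the inputs and 28.5, 33.0, 24.6, and 21.9 FPKM in RIP (log2 fold change -0.03, SE 0.20, adjusted p = 0.922). SMARCC1 to SMARCC2 ratios were 1.95, 1.67, 0.60, and 0.56 in the inputs and 0.85, 0.71, 0.37, and 0.57 in RIP, lower in RIP except in SW1990. SMARCB1 (SNF5), lost in rhabdoid tumours, had 0.90, and SMARCD1, SMARCD2, and SMARCD3 had 0.65, 1.03, and 0.64, all past the threshold.

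**Figure D3:**
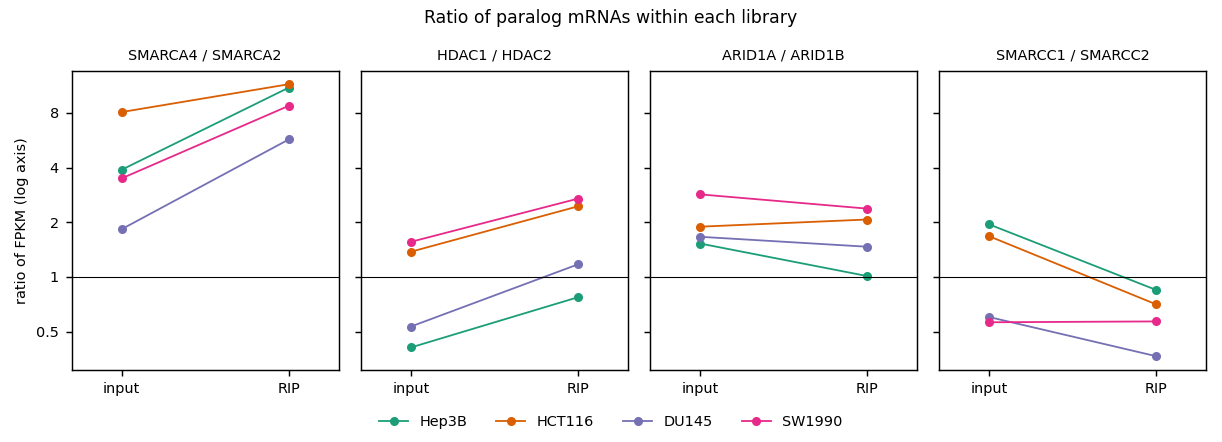
Ratio of FPKM between the members of 4 paralog pairs, on a log axis, in the input and the RIP library of each cell line. SMARCA4 over SMARCA2 and HDAC1 over HDAC2 rise from input to RIP in all 4 cell lines, ARID1A over ARID1B is lower in RIP in 3 of 4, and SMARCC1 over SMARCC2 falls in 3 of 4.

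SMARCE1 (BAF57), an accessory SWI/SNF subunit with a DNA-binding HMG domain, fell furthest of all members. It was at 58.0, 50.4, 37.1, and 70.4 FPKM in the inputs and 8.43, 7.88, 8.63, and 9.59 FPKM in RIP (log2 fold change -2.45, SE 0.21, adjusted p = 1.45e-05). The mean was 54.0 ± 14.0 FPKM in the inputs and 8.63 ± 0.713 FPKM in RIP (SD, n = 4 cell lines), and the RIP levels differed little between cell lines. The deposited table lists it within chr17:38781213-38821433 (hg19), an interval shared by 3 genes. The call held without any 1 cell line, without the block, with limma on FPKM, and within each deposited table. BRD7 and BRD9, bromodomain subunits of particular SWI/SNF complexes, had -0.44 and 0.39 and did not pass (adjusted p = 0.055 and 0.136).

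CHD and ISWI proteins are the ATPases of other remodellers. Of 11 genes, 6 were higher by edgeR (54.5%, against 26.5% of all genes), and the median was 1.05. The number lower was 0 by edgeR (against 24.9%), and also 0 at an unadjusted p below 0.05, by DESeq2, and by limma. Library totals and the fit without HCT116 gave 1 lower each, against 32.05% and 21.48% of all genes. Without the block 2 were higher, against 7.16% of all genes. CHD8, a chromodomain remodeller linked to autism, was at 22.02, 9.52, 24.1, and 19.7 FPKM in the inputs and 58.1, 88.5, 149, and 106 FPKM in RIP (log2 fold change 2.31, SE 0.26, adjusted p = 4.54e-05), and Hep3B had the smallest rise. CHD4, the NuRD ATPase, had 1.502, CHD3 had 1.05, and CHD7, mutated in CHARGE syndrome, had 1.25. CHD5, known mainly from neurons, was at 0.0863, 1.74, 0.0222, and 0.0732 FPKM in the inputs and 0.854, 11.01, 0.130, and 0.681 FPKM in RIP (log2 fold change 1.85, SE 0.28, adjusted p = 2.99e-04). HCT116 alone held it above 1 FPKM in either kind of library. In the inputs CHD5 rests on 25, 957, 12, and 38 fragments, and without HCT116 it did not pass (log2 fold change 1.54, adjusted p = 0.1). The ISWI ATPase SMARCA5 had -0.35 and did not pass (adjusted p = 0.174). Its paralog SMARCA1 was at 26.7, 6.43, 5.79, and 0 FPKM in the inputs and 39.5, 37.1, 10.3, and 0 FPKM in RIP (log2 fold change 0.83, SE 0.39, adjusted p = 0.103). Without HCT116 SMARCA1 was at 0.20 (adjusted p = 0.579), while it passed within the table of Hep3B and HCT116 (1.05, adjusted p = 0.0476) and with no minimum on counts (0.80, adjusted p = 0.0126). SW1990 had 0 fragments of SMARCA1 in both libraries, where a count of 0 allows up to 3 fragments, or 8.09e-06% of the input library and 7.79e-06% of the RIP library, counting error only. Among the other cell lines, HCT116 had the largest ratio of RIP to input and was near the Hep3B level in RIP.

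Of 6 ARID proteins outside SWI/SNF, 3 were higher (50%, against 26.5% of all genes) and 2 were lower (33.3%, against 24.9%). Without the block 0 were called in either direction, against 7.16% of all genes higher and 6.75% lower. Limma on FPKM called 0 lower, against 18.4% of all genes with log2(FPKM + 1). ARID3A, a DNA-binding factor first known from B cells, and its paralog ARID3B had 1.42 and 1.35, and ARID5A, which also binds RNA, had 1.87. ARID5A was at 5.62, 4.99, 2.06, and 1.62 FPKM in the inputs and 24.2, 14.9, 6.52, and 7.13 FPKM in RIP, without overlap (adjusted p = 3.97e-05). ARID4A and ARID4B, subunits of the Sin3 corepressor that bind the retinoblastoma protein, had -1.06 (adjusted p = 0.00963) and -1.44 (adjusted p = 0.0029). Bromodomain readers bind acetylated lysines. BRD1, a scaffold of acetyltransferase complexes, was at 10.48, 7.30, 9.32, and 9.19 FPKM in the inputs and 30.3, 41.7, 24.0, and 32.1 FPKM in RIP (log2 fold change 1.69, SE 0.22, adjusted p = 1.31e-04). Of the BET proteins, the targets of BET inhibitors, BRD2 had 78.8, 69.5, 111, and 142 FPKM in the inputs and 186, 132, 341, and 242 FPKM in RIP (log2 fold change 1.001, SE 0.21, adjusted p = 0.00272). BRD3 had 0.51 (adjusted p = 0.0566), although all 4 RIP libraries of BRD3 lay above all 4 inputs.

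For ARID4A, ARID4B, KDM7A, and SETD3, named because they were called lower and chosen after their values were seen, counts and FPKM did not go together. Their count-based log2 ratios were below 0 in all 4 pairs, for example -1.06, -2.01, -0.38, and -2.31 for ARID4B and -1.41, -1.94, -0.53, and -0.96 for KDM7A. In FPKM, ARID4B was at 23.1, 5.42, 7.34, and 6.47 in the inputs and 13.3, 2.62, 10.46, and 1.88 in RIP, higher in RIP in DU145. KDM7A was at 2.51, 4.56, 2.74, and 3.69 FPKM in the inputs and 2.72, 1.53, 2.75, and 2.31 FPKM in RIP, not lower in Hep3B or DU145. Counts divided by FPKM give the transcript length that the deposited values imply. Its median log2 change from input to RIP was -0.62 for ARID4B and -0.36 for KDM7A, against a median of -0.01 over the members. With limma on log2(FPKM + 1), SETD9 and SMARCE1 were the 2 members that stayed lower, against 18.4% of all genes. For CHD5, which passed as higher, the RIP libraries held 61, 3596, 20, and 86 fragments, and its length change was -1.52 in Hep3B, -0.07 in HCT116, and -1.67 in SW1990, so that FPKM rose more than counts in Hep3B and SW1990. Its median, -1.52, was the furthest from 0 of all members. The median length change was 0.26 for SMARCE1 and -0.12 for SETD9.

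Within single cell lines, the median log2 ratio of the members, taken as log2 of (RIP FPKM + 1) over (input FPKM + 1), was 0.86, 1.08, 1.05, and 0.89. The same medians over all genes tested were 0.08, 0.01, 0.04, and 0.00. The mean of the 4 medians of the members was 0.97 ± 0.11 (SD, n = 4). Of 77 members, 64, 66, 65, and 64 were above 0, against 54.4%, 50.9%, 52.3%, and 50.2% of all genes tested. Over all 4 cell lines together, 55 members were higher in RIP in every pair, 3 were lower in every pair, and 19 were mixed, where 30.7% of all genes tested were higher and 23.6% were lower in every pair. All 50 members that were called higher rose in every pair. Demethylases had medians of 1.14, 1.73, 1.57, and 1.38, and acetyltransferase complexes 1.91, 2.48, 2.05, and 2.82. The CHD and ISWI group had 0.75, 1.505, 0.83, and 0.08, with SW1990 near 0. The medians of the methyltransferases stayed near 0 in each cell line, at 0.07, 0.28, 0.31, and 0.16. Single genes of that class ran from -2.66 in DU145 to 2.77 in SW1990. Each cell line has 1 pair, so differences between cell lines have no test.

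**Figure D4:**
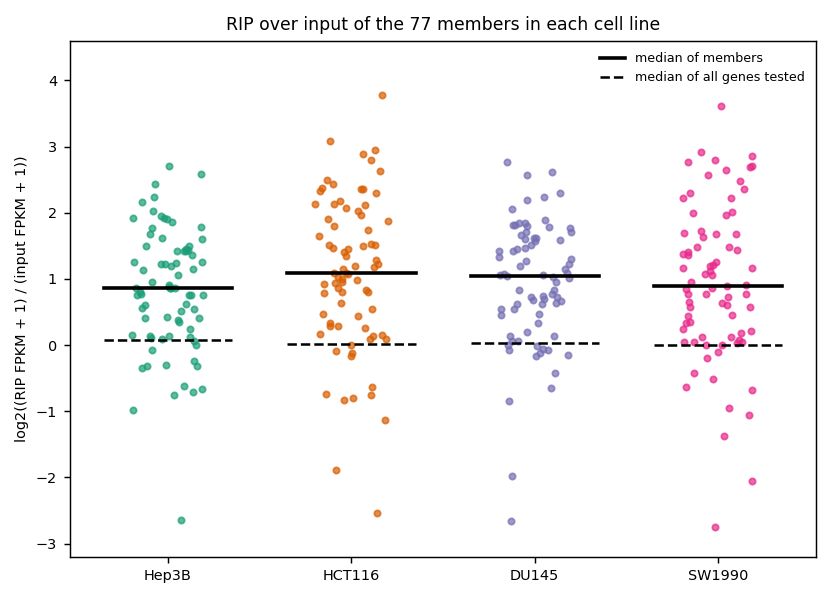
Log2 ratio of (RIP FPKM + 1) over (input FPKM + 1) for the 77 members in each cell line, each point a member and the sideways spread of points without meaning. The solid line is the median of the members, from 0.86 in Hep3B to 1.08 in HCT116, and the dashed line the median of all genes tested, from 0.00 to 0.08.

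Long mRNAs had higher values in these libraries, and the members are long. The implied length, relative to the median gene tested, had a median of 2.01 over the members and 0.98 over all genes tested, and 49 of 77 members were in the longest quartile of genes. Across genes, which are not independent replicates and share libraries, the length and the log2 fold change correlated with Spearman's rho = 0.39 over the 77 members and 0.32 over all 19921 genes. In the longest quartile, 71.4% of the members and 42.3% of all genes were higher, with medians of 1.25 and 0.56. In the next quartile, 56.3% of 16 members and 31.3% of all genes were higher, with medians of 0.77 and 0.16. Of 11 members in the second shortest quartile, 54.5% were higher, against 23.1% of all genes, with medians of 0.64 and -0.21. The shortest quartile held 1 member, SETD9, which fell. TRRAP and EP400 were the longest members, at 8.18 and 8.40 times the median gene, while HDAC10 was shorter than that gene, at 0.81, and had 1.51. Some long members, such as SETD2, ARID5B, and SMARCC1, did not pass. The part of length in these values was not tested.

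**Figure D5:**
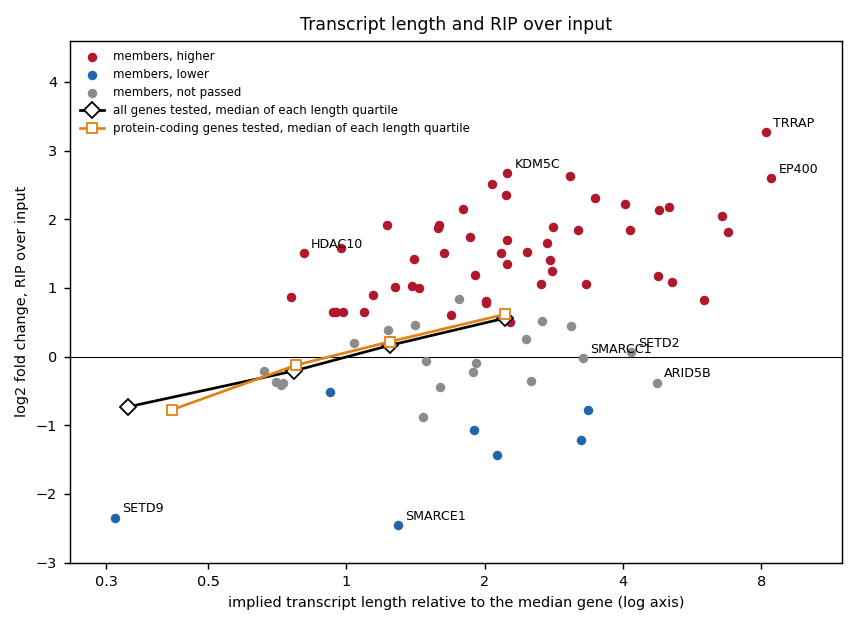
Log2 fold change of RIP over input against the implied transcript length relative to the median gene (log axis) for the 77 members, coloured by call. Open symbols join the medians of the length quartiles of all genes tested and of the protein-coding genes tested, which rise from -0.73 to 0.56 and from -0.77 to 0.62.

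The inputs give the level of each mRNA in the cells before the pull-down. Across the members, the highest input was a median of 2.17 times the lowest on the scale of FPKM + 1, and 6 members differed by at least 4 times. Each cell line has 1 input, and levels of Hep3B and HCT116 come from another table than those of DU145 and SW1990, so these are descriptions. In bulk RNA, fewer cells with a transcript and less of it per cell cannot be told apart. SMARCA1 ranged most, from 0 in SW1990 to 26.7 FPKM in Hep3B. KDM5B, a demethylase studied in breast cancer, had 20.1, 5.98, 9.14, and 1.49 FPKM in the inputs and 45.4, 30.6, 26.04, and 4.16 FPKM in RIP (log2 fold change 1.41, SE 0.26, adjusted p = 0.0011), with SW1990 lowest in both. ARID3A had 69.0, 8.86, 7.49, and 24.4 FPKM in the inputs and 238, 21.3, 23.1, and 70.0 FPKM in RIP (log2 fold change 1.42, SE 0.20, adjusted p = 1.98e-04), with Hep3B highest in both. HDAC9 was at 7.96, 2.79, 1.16, and 0.346 FPKM and ARID5B at 6.69, 1.41, 0.247, and 1.56 FPKM in the inputs, both highest in Hep3B. Both were low elsewhere and did not pass the test of RIP over input. NSD1 was the other member with a range of at least 4 times. For KDM5B and ARID3A the order of cell lines in RIP was that of the inputs, except that HCT116 and DU145 changed places, whereas SMARCA1 in HCT116 moved from well below Hep3B to nearly its level.

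Other chromatin genes outside the naming rule were read from lists of known complexes. Of 84 listed entries, 33 were higher (39.3%) and 20 were lower (23.8%), with a median of 0.37. Of all genes tested, 26.5% were higher and 24.9% were lower, and of protein-coding genes 32.0% and 26.2%, so that the share lower is near the background. Of the KMT2 and COMPASS methyltransferase genes, 6 of 12 entries were higher and 2 were lower, where KMT2B has 2 entries under separate gene identifiers. KMT2D rose from 7.41, 9.75, 20.4, and 13.4 FPKM to 34.2, 72.7, 83.5, and 92.5 FPKM (log2 fold change 2.50, SE 0.25, adjusted p = 2.62e-05), and the small subunit DPY30 fell from 33.5, 46.6, 56.9, and 124 FPKM to 29.6, 18.1, 24.4, and 26.1 FPKM (log2 fold change -1.51, SE 0.29, adjusted p = 0.0014). Of 12 genes of DNA methylation, 7 were higher (58.3%) and 3 were lower (25%, near the 24.9% of all genes). Among them, the maintenance methyltransferase DNMT1 had 1.81 and the NuRD subunit MBD3 had 2.07. Of 14 NuRD and Sin3 partners of the deacetylases, 7 were higher and 2 were lower, with -1.17 for SAP18. Of 7 KAT acetyltransferases, 3 were higher and 0 were lower by edgeR, and 0 were lower at an unadjusted p below 0.05, by DESeq2, or by limma. Of 7 sirtuins, the NAD-dependent deacetylases, 2 were higher (28.6%, near the 26.5% of all genes) and 1 was lower (14.3%, against 24.9%). The 11 SWI/SNF subunits outside the rule had 3 higher and 3 lower (27.3% each, near the 26.5% and 24.9% of all genes), with 1.79 for DPF2 and -0.90 for SS18.

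Polycomb genes, whose products write and read repressive marks, had 5 of 21 higher (23.8%, against 26.5% of all genes) and 9 lower (42.9%, against 24.9%), with a median of -0.31. RNF2, the ubiquitin ligase of Polycomb complexes, fell from 20.1, 31.8, 25.01, and 25.3 FPKM to 11.8, 8.90, 7.11, and 7.95 FPKM (log2 fold change -2.03, SE 0.20, adjusted p = 2.21e-05), without overlap. EED, SUZ12, and EZH2, the core of the methyltransferase complex PRC2, had -1.33, -1.14, and -0.65, all past the threshold (adjusted p = 6.84e-04, 0.00181, and 0.0402), although EZH2 was lower in FPKM in only 2 of 4 pairs. The chromobox readers CBX2 and CBX6 had 1.95 and 2.04 and rose. The median implied length was 1.53 for the Polycomb genes and 2.01 for the members. Of 5 nuclear-retained RNAs that were tested, 4 were lower in RIP (80%, against 24.9% of all genes) and 0 were higher by edgeR. The number higher was also 0 at an unadjusted p below 0.05, by DESeq2, and by limma. NEAT1, the scaffold RNA of paraspeckles, fell from 240.4, 44.9, 161, and 79.7 FPKM to 8.49, 6.80, 11.2, and 3.93 FPKM, without overlap.

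As a check of the labels, all 8 hepatocyte markers were at or above 1 FPKM in the Hep3B input, with ALB at 5030.1 FPKM, while none of them was in HCT116 or SW1990 and 2 were in DU145. Without a library of another liver line, these markers cannot decide between Hep3B and Huh7. HCT116 had 1 of 6 colon markers, CDX2, at 6.25 FPKM, and SW1990 had more of it, at 86.6 FPKM, and 3 of the colon markers. DU145 had 1 of 5 prostate markers, with KLK3 at 0, while HCT116 and SW1990 had 2 each. SW1990 had 5 of 6 markers of the pancreatic duct, with CEACAM6 at 0, while HCT116 also had 5 and DU145 had 4. By these numbers, the colon, prostate, and duct lists did not set their own cell line apart. Of the leukocyte markers, CD14 was at 1.99 FPKM in the Hep3B input, 2 FPKM in the SW1990 input, and 9.87 FPKM in the Hep3B RIP library, while PTPRC and CD3E were near 0 in every input. The 4 leukocyte markers summed to 1.99, 0.153, 0.190, and 2.09 FPKM in the inputs and to 9.87, 0.161, 0.841, and 1.88 FPKM in RIP. Summed fibroblast markers were 23.0, 4.41, 3.72, and 0.714 FPKM in the inputs and 23.2, 26.4, 3.63, and 6.92 FPKM in RIP. Their part in the results was not tested.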

How the data were processed

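RNA from RPS6 immunoprecipitation and from input was sequenced in 4 cell lines, 8 libraries in all. The authors aligned reads to human genome version 19 with TopHat (TopHat2 2.0.9 and CASAVA 1.8 per the labels). The counting tool, its annotation, and any filter are not given in the sources used here, and the sequencer named in the paper differs from that of the series record. The labels name a stranded total RNA kit. The authors deposited FPKM, normalized for length and depth, and estimated counts, scaled by 1 factor per library and split between overlapping genes, in 2 tables of 2 cell lines each. Files with the fold change, p-value, and q-value of the authors' own comparisons were not used. All columns of levels were mapped to a sample.

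Most counts were whole multiples of a step per library (92.8% to 94.2% of values under 500 fragments, tolerance 0.01). Dividing by it gave 35796161 to 54209614 fragments for the inputs and 34630366 to 42610075 for RIP. Fragments are not independent molecules. Of the members, 61 lie in a listed interval shared with another gene, where the split of reads is uncertain.

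The design had assumed counts per gene. The deposited estimated counts were rounded and tested with edgeR 4.0.16 in R 4.3.3 (quasi-likelihood test, TMM, cell line as a block, mean of at least 10 counts, Benjamini-Hochberg, threshold 0.05), after a test on simulated data. The SE is the log2 fold change divided by the root of its F statistic. Cell lines pair the libraries by design, and deviations of a RIP library from its group mean correlated with its own input with r of 0.85 to 0.90. No RIP library correlated above -0.02 with the input of another line. Deviations from a group mean cancel over the lines, which forces these correlations negative on balance, so they add no support for the pairing. Alternatives used no block, DESeq2 1.42.0, upper-quartile factors, library totals, other minimums, limma 3.58.1 on FPKM, other pseudocounts, and 3 cell lines at a time. Recovered fragments and fits within each table were added after the values were seen. Python 3.11.15 with pandas 2.3.3 and matplotlib 3.10.9 was used otherwise.

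All 77 members matched RefSeq symbols (SETD8 as KMT5A), and promoters come from RefSeq (GRCh38.p14). Proteins are not printed here. Values of 1 member and of some other genes are not reported here, although counts and medians include them. Genes named are EP300, CREBBP, EP400, NSD1, ASH1L, and TRRAP, up to 2 of the highest and 2 of the lowest called members of each class with the same direction in all 4 cell lines, the 5 members with the widest range of inputs, and 4 paralog pairs. Other members are named with their class, and 4 called lower were added after their values were seen. Members and lists were chosen with earlier results of these data known.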

Additional observations from a re-analysis of the deposited data

Results flagged for a closer look

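In the search for 1 library that stands apart from the other 3 of its kind, 111 sets of 4 values were examined and 2 stood out, where chance gives about 1 in 20. The log2 of (input FPKM + 1) of CHD5 was 1.453 in HCT116, while the other inputs lay between 0.03 and 0.12. The log2 of (input FPKM + 1) of SMARCA4 was 3.044 in DU145, while the other inputs lay between 4.72 and 4.86. The RIP library of SMARCA4 in DU145 was also the lowest of its kind.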

How the results depend on the processing

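Of 50 members higher in RIP, 21 remained without the replicate block, where 21 were called, and 7 lower became 2. Of all genes, 7.16% were higher and 6.75% were lower in that fit. Fits with DESeq2, upper-quartile factors, other minimums, limma on FPKM, or recovered fragments gave 46 to 53 higher. In these fits 13.5% to 32.3% of all genes were higher. With library totals, 41 were higher and 14 lower, against 19.52% and 32.05% of all genes. The median log2 fold change of the members was then 0.65 beside -0.40 over all genes. With upper-quartile factors these medians were 0.88 and -0.18. With limma on log2(FPKM + 1) and on log2(FPKM + 0.1), 2 members were lower, against 18.4% and 19.6% of all genes. Leaving out 1 cell line gave 45 to 47 higher, 5 to 8 lower, and a median of 0.88 to 0.96, lowest without HCT116. Among all genes these fits called 22.7% to 24.9% higher and 20.8% to 26.3% lower. Within the table of Hep3B and HCT116 the median was 0.88, and within that of DU145 and SW1990 it was 0.82. In the latter 3 members were lower, against 21.6% of all genes. The cause of these differences was not tested. The median ratio became 0.67 in Hep3B when centred on protein-coding genes and 1.24 in HCT116 with a pseudocount of 0.1. In all 15 alternatives the median of the members exceeded that of all genes, by 0.90 to 1.56. HDAC2 turned to 0.17 with both limma fits. SMARCC1 turned to 0.22 and 0.23 with limma, ranged from -0.14 without DU145 to 0.041 without Hep3B, and turned to 0.18 within the table of DU145 and SW1990. Neither had passed the test. Of the named genes called over 4 pairs, HDAC1, SETD3, SETD7, SMARCA2, and SMARCC2 did not pass within either table. Of 555 values for 37 named genes, 489 kept their direction and side of the threshold, 55 no longer passed, 5 newly passed, and 6 turned sign. SETD9, CHD5, HDAC9, ARID4A, ARID5B, and SMARCA1 have under 100 fragments in some libraries, where depth limits their values.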
